A study of Mus musculus with 13 samples.

Results

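Integrin and laminin subunit genes were examined in mammary glands and mammary tumors of MMTV-HER2/Neu mice. The set was taken by symbol from the count table, as every row named as an integrin alpha chain, an integrin beta chain or a laminin alpha, beta or gamma chain. It held 37 of the 24421 rows: 18 integrin alpha chains, 8 integrin beta chains and 11 laminin chains. Of the 26 integrin chains, 8 are carried mainly by leukocytes and are described apart from the other 18. All 37 genes passed the filter on low counts in both of the fits used below.

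All 13 libraries came from female mice on the FVB/N background carrying the 202Mul/J line of the MMTV-HER2/neu transgene, in which the mouse mammary tumor virus promoter drives a rat HER2/Neu cDNA in the breast epithelium. The genotype label reads wild type for every sample, the glands included, although the strain name carries the transgene. Mammary glands of untreated mice (n = 2) were the tumor-free tissue. Primary untreated tumors (n = 3) came from mice on plain water, and primary stavudine tumors (n = 3) from mice with 1 mg/mL of the nucleoside reverse transcriptase inhibitor stavudine in their water. Recurrent 17-DMAG tumors (n = 3) had regrown under repeated injections of the Hsp90 inhibitor 17-DMAG at 20 mg/kg. For the recurrent 17-DMAG plus stavudine group (n = 2) the mice were given both agents. The paper describes 17-DMAG dosing as ongoing during regrowth, up to the tumor size at which mice were killed. Primary tumors had no 17-DMAG, so comparisons of recurrent with primary tumors do not separate recurrence from exposure to this drug. Stavudine began either at 2 months of age or when a primary tumor appeared, and the primary stavudine tumors are described as having developed in mice already on it. For the recurrent tumors with stavudine, the sources used here do not say which start applied. Each tumor library was labelled as an individual tumor, and nothing states which tumors shared a mouse, so p-values measure the spread between these samples. No label gave a sequencing batch, an animal age at collection or a date.

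Integrins are cell surface receptors made of 1 alpha and 1 beta chain, and laminins are basement membrane proteins made of 1 alpha, 1 beta and 1 gamma chain. In the mammary gland, luminal cells and the myoepithelial cells around them rest on a laminin-rich basement membrane. The dimer of Itga6 and Itgb4 anchors basal epithelial cells to a laminin trimer with Lama3 as its alpha chain and Lamb3 as its beta chain, in hemidesmosomes, while most other alpha chains pair with Itgb1. Leukocytes carry their own pairs, among them the Itgb2 integrins, which bind adhesion molecules of the Icam family, and the Itgb7 integrins, which serve homing and retention in epithelia.

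Total counts ran from 39921388 to 56887708 per library. The libraries differed in tissue content within groups. Gland 1 was rich in lymphocyte markers: the sum of 5 B cell markers was 129 CPM (counts relative to library size after TMM scaling) in gland 1, 2.32 CPM in gland 2 and 0.479 to 1.57 CPM in tumors. Gland 2 was rich in milk protein RNA, with a sum of 692420 CPM over 6 genes against 4599 to 23348 CPM in tumors, and its TMM factor was 0.493. Skeletal muscle markers, 7 genes, summed to 1625 CPM in gland 2, 989 CPM in primary untreated replicate 1, 425 CPM in recurrent 17-DMAG replicate 3, 1560 CPM in recurrent 17-DMAG plus stavudine replicate 2, and 145 CPM or less in each other library. Recurrent 17-DMAG replicate 1 stood apart, with a sum of 3356 CPM over 6 fibroblast and pericyte markers against 220 to 1224 CPM in the other 10 tumors, and it was the highest tumor library for 20 of the 37 integrin and laminin genes. Luminal epithelial markers, 5 genes, were present in every library, at 1242 to 2661 CPM in tumors and 1586 and 1350 CPM in the glands. The Erbb2 row, to which rat transgene reads can also count, stood at 3698 to 19072 CPM in all 13 libraries. In bulk tissue, fewer cells of a type and less RNA per cell cannot be told apart.

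Levels between genes were compared per kilobase of exon. Itgb1, the common beta chain, had the highest level in 10 of the 13 libraries and Itga6 in the other 3. Itgb1 stood at 119 and 104 CPM per kb in the glands. Its tumor levels were 150, 152 and 157 CPM per kb in primary untreated, 165, 141 and 182 in primary stavudine, 205, 185 and 154 in recurrent 17-DMAG, and 146 and 152 in recurrent 17-DMAG plus stavudine tumors. Every tumor lay above both glands, and the 11 tumors spanned only 1.45-fold, the narrowest range among the 37 genes.

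Itga6, the laminin-binding alpha chain of highest level, was 117 and 205 CPM per kb in the glands. In tumors it was 94.7, 102 and 133 CPM per kb in primary untreated, 76.0, 128 and 110 in primary stavudine, 212, 115 and 95.1 in recurrent 17-DMAG, and 136 and 183 in recurrent 17-DMAG plus stavudine. The glands overlapped every tumor group, while both recurrent 17-DMAG plus stavudine tumors lay above all 6 primary tumors. Itgb5, a beta chain that pairs with Itgav to bind RGD motifs, led the RGD-binding class in tumors, with 36.1 and 38.5 CPM per kb in the glands and 81.1, 46.7 and 46.0 in primary untreated, 83.2, 60.6 and 72.5 in primary stavudine, 47.8, 59.0 and 79.4 in recurrent 17-DMAG, and 60.4 and 62.0 in recurrent 17-DMAG plus stavudine tumors. All 11 tumors exceeded both glands, although the difference missed the threshold (adjusted p = 0.0761, below). Itga8, Itgb3 and Itgav followed in that class, with tumor medians of 52.3, 36.8 and 32.2 CPM per kb.

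The collagen-binding alpha chains were low. Itga1, the highest of them, stood at 5.31 and 4.64 CPM per kb in the glands, 4.40, 3.67 and 5.28 in primary untreated, 2.89, 2.48 and 4.15 in primary stavudine, 5.34, 3.06 and 3.46 in recurrent 17-DMAG, and 2.29 and 4.09 in recurrent 17-DMAG plus stavudine tumors. Tumor medians of Itga2, Itga10 and Itga11 were 0.847, 0.785 and 0.763 CPM per kb.

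Among laminins, the chains of highest level in tumors were Lamb2, Lama4, Lama5 and Lamc1, with medians of 45.1, 39.0, 22.9 and 20.9 CPM per kb. Lamb2, a beta chain of vascular and muscle basement membranes, was 29.6 and 12.9 CPM per kb in the glands, 44.0, 52.8 and 48.9 in primary untreated, 37.8, 41.9 and 46.1 in primary stavudine, 17.7, 50.5 and 45.1 in recurrent 17-DMAG, and 48.3 and 43.8 in recurrent 17-DMAG plus stavudine tumors. The tumor at 17.7 was recurrent 17-DMAG replicate 1, the only tumor not above gland 1. Lamc1, the gamma chain of most trimers, was 26.2 and 24.7 CPM per kb in the glands, 26.1, 26.6 and 18.4 in primary untreated, 18.4, 13.6 and 25.8 in primary stavudine, 44.5, 20.8 and 20.9 in recurrent 17-DMAG, and 18.5 and 26.2 in recurrent 17-DMAG plus stavudine tumors, with overlap between all groups.

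**Figure D1:**
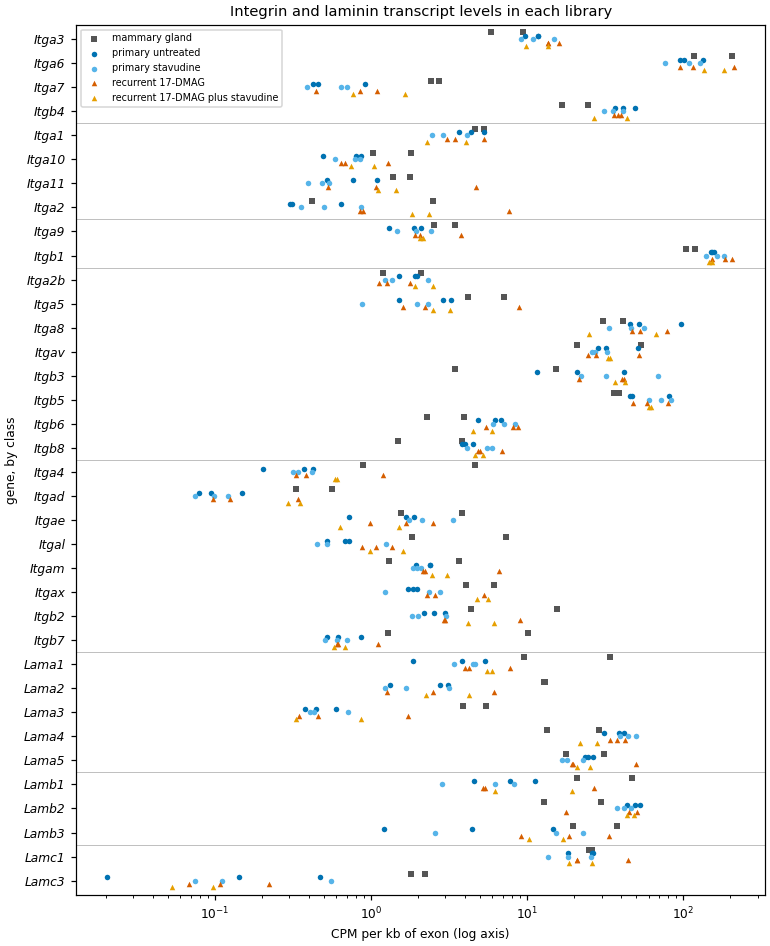
Level of 36 of the 37 genes in each of the 13 libraries, in CPM per kb of exon on a log axis, with genes grouped by class between grey lines and 1 point per library coloured by group. Itgb1 and Itga6 sit furthest right, at 76.0 to 212 CPM per kb, while Lamc3, Itgad, Itga4 and Lama3 have tumor medians of 0.442 CPM per kb or less.

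The tumors were first compared with the glands, over all 13 libraries. In edgeR's quasi-likelihood test, 11 of the 37 genes passed an adjusted p of 0.05, 29.7% of the set, against 1785 of 17135 genes tested, or 10.4%. Of these, 8 fell in tumors (Itgb7, Lama3, Lama1, Itgal, Itga4, Lama2, Lamc3 and Itga7) and 3 rose (Itgb4, Itgb6 and Itgb1). At an unadjusted p under 0.05 there were 22 genes, 9 higher and 13 lower, or 59.5% against 29.6% of all genes. The CPM values of all tumors lay outside those of both glands for 12 genes, 32.4% against 11.5%. The median log2 change was -0.45 over the 37 genes, -1.5 over the 8 leukocyte integrins and -1.18 over the 11 laminins, against -0.02 over all genes.

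The laminin alpha chains carried most of the decrease outside leukocyte genes, as 3 of 5 fell. Lama3, the alpha chain of the hemidesmosomal trimer, on chromosome 18 of GRCm38, stood at 41.9 CPM in gland 1 and 58.2 CPM in gland 2. In the tumors it had a lowest value of 3.58, a median of 4.75 and a highest of 18.5 CPM. No tumor reached the lower gland, and Lama3 fell by 2.98 on the log2 scale (SE 0.45, adjusted p = 0.00409). Lama1 (chr17:67697259-67822647, plus strand), an alpha chain of epithelial basement membranes, was 91.2 and 323 CPM in the glands and 17.6 to 73.9 CPM in tumors, with a median of 42.8. It fell by 2.22 (SE 0.38, adjusted p = 0.00732), but the glands differed from each other and without gland 2 its log2 change was -0.95 (adjusted p = 0.353). Lama2 (chr10:26980036-27619758, minus strand), an alpha chain of muscle and stromal basement membranes, was 128 and 126 CPM in the glands and 12 to 60.4 CPM in tumors, with a median of 24.3. Every tumor was below both glands, and Lama2 fell by 2.27 (SE 0.45, adjusted p = 0.0133).

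Lama4, an alpha chain of vessel walls, and Lama5, the alpha chain most widely made by epithelia, did not follow them. Lama4 had a log2 change of 0.75 (SE 0.25, adjusted p = 0.0827). Lama5 was 201 and 353 CPM in the glands and 192 to 569 CPM in tumors, so that the groups overlapped. Lamb3, the beta chain of the Lama3 trimer, overlapped between glands and tumors. It was 101 and 192 CPM in the glands and ranged 27.8-fold among tumors, from 6.20 CPM in primary untreated replicate 2 to 172 CPM in recurrent 17-DMAG replicate 1. Its log2 change was -1.18 (SE 0.77, adjusted p = 0.324).

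Lamc3 (chr2:31887291-31946539, plus strand), a gamma chain of restricted distribution, was 10.6 and 13.1 CPM in the glands and 0.120 to 3.27 CPM in tumors. The lowest tumor value rests on 6 counts. Lamc3 fell by 3.74 (SE 0.75, adjusted p = 0.0134). The beta chains gave no call: Lamb1, a beta chain of several trimers, had a log2 change of -1.88 (SE 0.59, adjusted p = 0.0663) and Lamb2 one of 1.03 (SE 0.38, adjusted p = 0.103).

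Markers of basal and myoepithelial cells moved with these chains. The sum of 7 such markers was 323 and 917 CPM in the glands and 21.7 to 270 CPM in tumors, where Krt5 and Krt14 were each at 0 in primary stavudine replicate 3. Adipocyte markers (5 genes) summed to 282 and 225 CPM in the glands and 0.0843 to 45.0 CPM in tumors, and endothelial markers (5 genes) to 256 and 239 CPM against 65.5 to 261 CPM. The fibroblast and pericyte sum was 1537 and 1229 CPM in the glands, and its tumor median was 555 CPM with recurrent 17-DMAG replicate 1, at 3356 CPM, above both glands. Their part in the laminin differences was not tested.

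Of the laminin-binding integrins, Itga7 fell and Itgb4 rose. Itga7 (chr10:128933818-128958282, plus strand), an alpha chain best known from muscle, was 11.3 and 10.0 CPM in the glands and 1.61 to 6.89 CPM in tumors, and it fell by 1.75 (SE 0.38, adjusted p = 0.0176). Skeletal muscle markers summed to 5.66 CPM in gland 1 and 1625 CPM in gland 2, while Itga7 was alike in both. Itgb4 (chr11:115974709-116008412, plus strand) was 157 and 107 CPM in the glands. Its tumors ran from 171 to 315 CPM around a median of 245, all above both glands, and the log2 change was 0.87 (SE 0.21, adjusted p = 0.0299). Its partner Itga6 did not rise with it: 511 and 895 CPM in the glands overlapped 331 to 924 CPM in tumors. Itga3, which binds laminins with Itgb1, was 49.4 and 30.7 CPM in the glands and 47.9 to 83.6 CPM in tumors (log2 change 0.67, SE 0.22, adjusted p = 0.0812).

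Itgb1 (chr8:128685654-128733200, plus strand) rose by 0.53 (SE 0.15, adjusted p = 0.0453). Its CPM values were 455 and 396 in the glands and 537 to 781 in tumors. Itgb6 (chr2:60598292-60722643, minus strand), an epithelial partner of Itgav that activates latent TGF-beta, was 23.9 and 13.8 CPM in the glands and 27.4 to 53.3 CPM in tumors, with a median of 37.7. No tumor was as low as the higher gland, and Itgb6 rose by 1.04 (SE 0.26, adjusted p = 0.0313). The other RGD-binding beta chains gave no call. Itgb3 ranged from 66.9 to 397 CPM in tumors against 89.1 and 19.9 CPM in the glands (log2 change 1.86, SE 0.67, adjusted p = 0.0993), Itgb5 had a log2 change of 0.76 (SE 0.25, adjusted p = 0.0761) and Itgb8 one of 0.88 (SE 0.30, adjusted p = 0.0830). Of the 8 RGD-binding genes, 6 had a positive change.

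**Figure D2:**
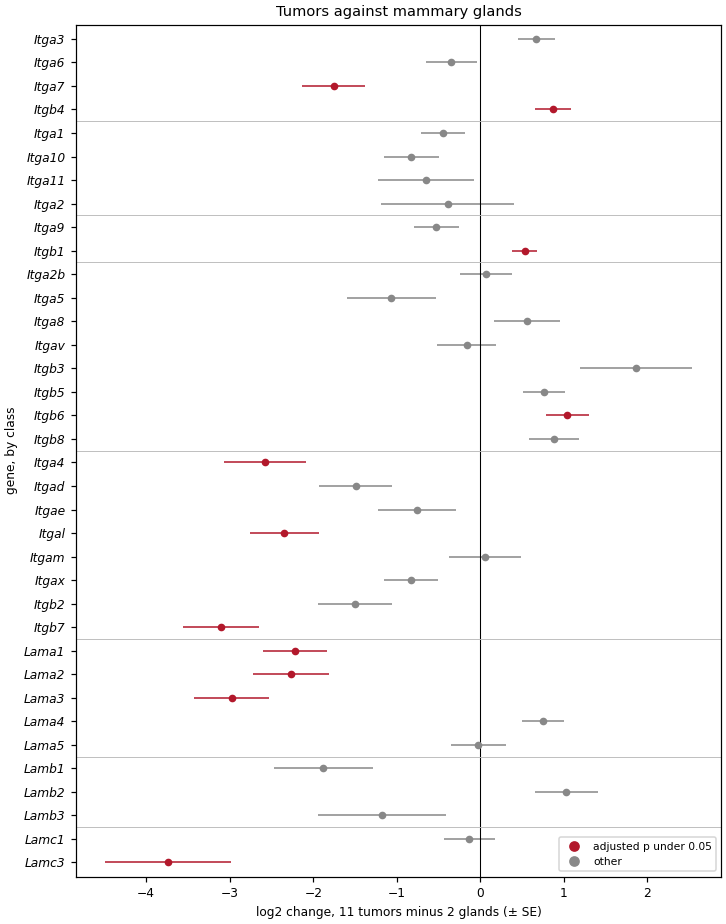
Log2 change of 36 genes in the 11 tumors against the 2 glands, with bars of 1 SE, from edgeR on 13 libraries, genes passing an adjusted p of 0.05 in red. The 11 red points are 8 below 0, from -1.75 for Itga7 to -3.74 for Lamc3, and 3 above 0, from 0.53 for Itgb1 to 1.04 for Itgb6.

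**Figure D3:**
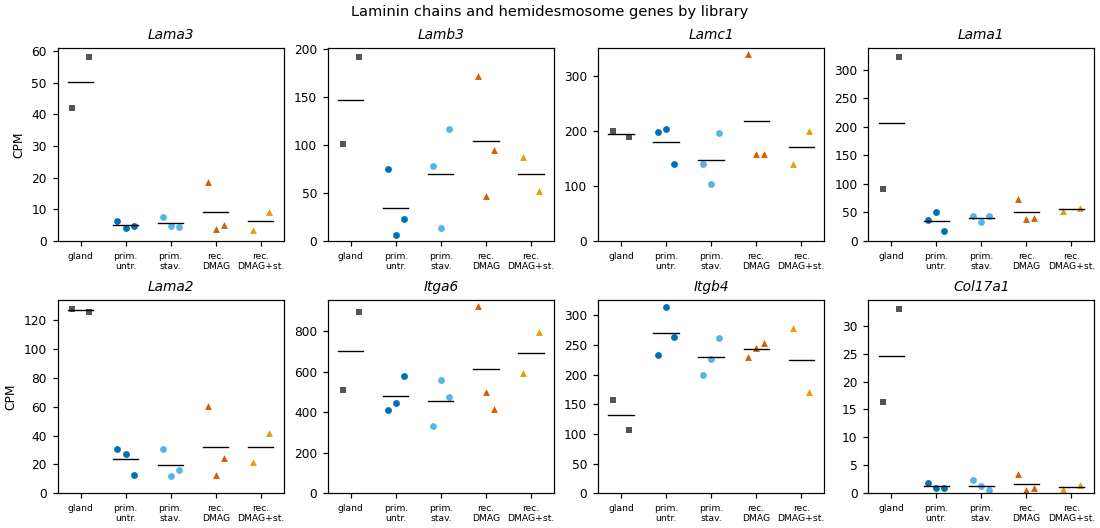
CPM of 5 laminin chains, Itga6, Itgb4 and the hemidesmosome collagen Col17a1 in each library, with 1 point per library, groups along the horizontal axis and a line at each group's mean. Lama3, Lama1, Lama2 and Col17a1 are higher in both glands than in any tumor, Itgb4 is lower in both glands, and Lamb3, Lamc1 and Itga6 overlap.

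These calls rested on the pair of glands. Without gland 1, 14 of the 37 genes passed, of which 8 were among the 11, and without gland 2 there were 4, of which 3 were among them. Without gland 2, Lama3 missed the threshold (-2.63, adjusted p = 0.0502), as did Lama2 (-2.19, adjusted p = 0.108), Lamc3 (-3.49, adjusted p = 0.104), Itga7 (-1.75, adjusted p = 0.119), Itgb4 (0.71, adjusted p = 0.234) and Itgb6 (0.79, adjusted p = 0.240), each in its first direction. In these fits the lone gland is assumed to vary like the tumors. Without recurrent 17-DMAG replicate 1, 19 genes passed, all 11 among them. Calls over all genes moved the same way, to 4255 without gland 1, 535 without gland 2 and 3100 without that tumor, from 1785. Without primary untreated replicate 3 the adjusted p was 0.0512 for Itgb4 and 0.0549 for Itgb6, and without recurrent 17-DMAG replicate 3 it was 0.0511 and 0.0501. Itgb6 also missed the threshold without primary stavudine replicate 2 (0.0515), primary stavudine replicate 3 (0.0513) or recurrent 17-DMAG plus stavudine replicate 1 (0.0573). Itgb1 was called in 4 of the 13 fits that each left out 1 library. Without the 3 tumors richest in muscle genes, a choice made after seeing the data, fewer of the 11 passed. Calls over all genes fell as well, and this fit leaves only 1 recurrent 17-DMAG plus stavudine tumor.

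The 8 leukocyte integrins were described in the same comparison. Itgb7 (chr15:102215995-102231944, minus strand), the beta chain of lymphocyte homing receptors, was 27.3 CPM in gland 1 and 3.46 CPM in gland 2, and 1.37 to 2.99 CPM in tumors. It fell by 3.11 (SE 0.46, adjusted p = 0.00369), and by 0.91 without gland 1 (adjusted p = 0.127). Itgal (chr7:127296260-127335138, plus strand), the alpha chain of the main lymphocyte Itgb2 integrin, was 47.0 and 11.7 CPM in the glands and 2.87 to 10.2 CPM in tumors. It fell by 2.35 (SE 0.41, adjusted p = 0.00760), and its log2 change was -0.98 without gland 1 (adjusted p = 0.151). Itga4 (chr2:79255426-79333123, plus strand), which pairs with Itgb1 or Itgb7 to bind Vcam1 and Madcam1, was 45.3 and 8.67 CPM in the glands and 1.98 to 11.7 CPM in tumors, so that 1 tumor, recurrent 17-DMAG replicate 1, exceeded gland 2. It fell by 2.58 (SE 0.49, adjusted p = 0.0103), with a log2 change of -0.91 without gland 1 (adjusted p = 0.267).

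All 3 called leukocyte genes had their highest value in gland 1, which also had the highest sums of 5 pan-leukocyte markers (460.5 CPM, against 87.6 CPM in gland 2 and 54.5 to 179 CPM in tumors) and of 5 T cell markers (90.5 CPM, against 4.89 CPM in gland 2 and 2.02 to 7.64 CPM in tumors). The B cell marker Ms4a1 was 29.2 CPM in gland 1 and at most 0.214 CPM in every other library. Beyond the values without gland 1, their part in these differences was not tested. Itgam, an alpha chain of myeloid cells, was also higher in gland 1 (18.0 CPM) than in gland 2 (6.39 CPM). In tumors it ran from 9.09 to 32.4 CPM, with a median of 10.9. Unlike for the 3 called genes, gland 2 was below every tumor.

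Promoter windows are shown for 4 leukocyte integrin genes: Itga4 and Itgb7, which encode a receptor pair and were both lower in tumors, and Itgam and Itgax, both on chromosome 7, whose highest tumor values came in recurrent tumors. Each window is the 250 bases before the transcription start, in lower case on the gene's strand, from the RefSeq table for GRCm38.p6. Capitals mark matches on either strand to GAGGAA, the core of the box bound by the myeloid and B cell factor PU.1, to TGANTCA, the AP-1 element, or to GGGCGG, the GC box. The windows lie at chr2:79255176-79255425 (Itga4, plus strand), chr15:102231936-102232185 (Itgb7, minus strand), chr7:128062390-128062639 (Itgam, plus strand) and chr7:128129300-128129549 (Itgax, plus strand).
Itga4: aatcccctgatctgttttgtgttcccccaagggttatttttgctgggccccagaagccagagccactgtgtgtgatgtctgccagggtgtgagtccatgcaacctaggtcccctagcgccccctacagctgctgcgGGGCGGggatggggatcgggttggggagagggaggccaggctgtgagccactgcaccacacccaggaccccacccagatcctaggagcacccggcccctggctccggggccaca
Itgb7: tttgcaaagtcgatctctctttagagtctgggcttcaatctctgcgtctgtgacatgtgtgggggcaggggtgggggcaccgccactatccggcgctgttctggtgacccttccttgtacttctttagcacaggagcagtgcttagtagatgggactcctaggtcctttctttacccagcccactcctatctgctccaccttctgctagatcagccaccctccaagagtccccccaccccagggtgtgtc
Itgam: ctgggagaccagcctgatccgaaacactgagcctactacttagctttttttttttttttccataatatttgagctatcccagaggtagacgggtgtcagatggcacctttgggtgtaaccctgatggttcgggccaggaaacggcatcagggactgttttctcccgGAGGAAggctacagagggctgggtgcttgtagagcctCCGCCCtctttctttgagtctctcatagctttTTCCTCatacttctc
Itgax: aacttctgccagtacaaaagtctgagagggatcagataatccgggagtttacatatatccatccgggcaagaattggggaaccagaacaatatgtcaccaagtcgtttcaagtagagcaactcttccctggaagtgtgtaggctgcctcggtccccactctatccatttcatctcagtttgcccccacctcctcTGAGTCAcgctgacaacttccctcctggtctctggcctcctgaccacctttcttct
Itgam held 2 matches to GAGGAA and 1 to GGGCGG, Itga4 held 1 to GGGCGG, Itgax 1 to TGANTCA and Itgb7 none of the 3. Of 32817 promoter windows of the same length in the table, 23.3% held GAGGAA, 6.75% TGANTCA and 32.7% GGGCGG. Windows were found for 23 of the 37 genes. A match is a description of letters and does not show a bound site.

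The 4 tumor groups were then compared on the 11 tumor libraries, with 16870 genes tested. Primary untreated tumors were also set against the glands alone, in the fit of 13 libraries. There 4 genes fell, 10.8% of the set against 2.11% of all genes: Lama3 (log2 change -3.30, SE 0.65, adjusted p = 0.0419), Itgal (-2.85, SE 0.57, adjusted p = 0.0419), Lama1 (-2.56, SE 0.53, adjusted p = 0.0457) and Itgb7 (-3.11, SE 0.66, adjusted p = 0.0468). Lama3 was 6.41, 4.04 and 4.75 CPM in the primary untreated tumors, Lama1 36.3, 51.1 and 17.6 CPM, Itgal 4.60, 3.32 and 4.33 CPM, and Itgb7 1.39, 2.30 and 1.64 CPM, all below both glands. At an unadjusted p under 0.05 there were 20 genes, 54.1% against 24.5%, and 26 genes did not overlap, 70.3% against 39.2%. None of the 4 calls remained when any 1 of the 3 primary untreated, 3 primary stavudine or 2 recurrent 17-DMAG plus stavudine tumors, or recurrent 17-DMAG replicate 3, was left out. Calls over all genes moved too, from 361 to 0 without primary untreated replicate 2 or 3 and to 50 without recurrent 17-DMAG replicate 3. They came to 86 without recurrent 17-DMAG replicate 2 and to 1360 without recurrent 17-DMAG replicate 1. In the set there was 1 call without recurrent 17-DMAG replicate 2, which was among the 4. There were 3 without gland 2 and 9 without gland 1, of which 2 in each case were among the 4, and 12 without recurrent 17-DMAG replicate 1, all 4 among them.

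The first comparison among tumors asked what stavudine in the water alone went with in primary tumors. No integrin or laminin gene passed in edgeR, nor did any other gene (0%), and DESeq2 and limma voom called 0 of the 37 as well. No gene of the set had an unadjusted p under 0.05, against 3.76% of all genes, and 1 did not overlap, against 10.8%. The median log2 change was 0.03. The smallest p in each direction belonged to Itgb8, a TGF-beta activating partner of Itgav, and Itga1. Itgb8 was 32.4, 38.0 and 33.7 CPM in primary untreated and 34.9, 46.2 and 50.0 CPM in primary stavudine tumors (log2 change 0.32, SE 0.17). Itga1 was 48.2, 40.2 and 57.9 CPM against 31.7, 27.2 and 45.5 CPM (log2 change -0.50, SE 0.30). In both genes the groups overlapped, and the adjusted p was above 0.99. Itgae and Lama4 had log2 changes of 0.74 (SE 0.49) and 0.23 (SE 0.16), and Itgb4 and Itgav had changes of -0.25 (SE 0.19) and -0.40 (SE 0.31).

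Recurrent tumors were compared with primary tumors separately in mice without and with stavudine. Without stavudine, edgeR called 0 genes of the set and 0% of all genes, and DESeq2 and limma voom called 0 of the set. At an unadjusted p under 0.05 there were 3, 8.11% against 9.69%, and 5 did not overlap, 13.5% against 15.1%, so neither share exceeded that of all genes. By sign, 30 of the 37 had a positive change, including 8 of 8 leukocyte integrins and 5 of 5 laminin alpha chains. Of these alpha chains, Lama4 was almost unchanged. The median log2 change was 0.40 against -0.01 over all genes. Recurrent 17-DMAG replicate 1, among the 3 recurrent tumors here, was the highest tumor library for 20 of the 37 genes.

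Itga2, the collagen receptor chain of epithelial cells and platelets, had the largest change. It was 4.56, 2.14 and 2.23 CPM in primary untreated tumors and 54.5, 6.36 and 6.02 CPM in recurrent 17-DMAG tumors. All recurrent values were higher, but 1 tumor, replicate 1, was far above the others. The log2 change was 2.89 (SE 0.85, adjusted p = 0.509) and 1.06 without that tumor. The next smallest p belonged to Itgb8, at 40.5, 58.2 and 42.0 CPM in recurrent 17-DMAG tumors, above all 3 primary untreated tumors (log2 change 0.42, SE 0.17, adjusted p = 0.509). Itgax, an alpha chain of dendritic cells and macrophages, was 7.53, 8.52 and 8.06 CPM in primary untreated and 23.0, 11.2 and 9.95 CPM in recurrent 17-DMAG tumors (log2 change 0.86, SE 0.36, adjusted p = 0.509), again with replicate 1 highest. Without that tumor its change was 0.40.

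In the other direction, Itga2b, the platelet alpha chain, was 5.20, 6.58 and 6.74 CPM in primary untreated and 3.84, 6.07 and 4.34 CPM in recurrent 17-DMAG tumors (log2 change -0.39, SE 0.30, adjusted p = 0.602). Lamb2 was 248, 297 and 275 CPM against 99.8, 284 and 254 CPM. Its change of -0.38 came to -0.02 without recurrent 17-DMAG replicate 1. Itgb4 had a log2 change of -0.17, and its groups overlapped.

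Under stavudine, edgeR again called 0 genes of the set and 0% of all genes. DESeq2 called 1 of the set, Lama4, among 331 of all genes, and limma voom called 0. At an unadjusted p under 0.05 there were 4 genes, 10.8% against 10.1%, and 15 did not overlap, 40.5% against 35.3%. A positive change was seen in 27 of 37 genes, including 7 of 8 leukocyte integrins, and the median was 0.22 against 0.01 over all genes.

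Lama4 had the smallest p. It was 237, 268 and 300 CPM in primary stavudine tumors and 133 and 170 CPM in recurrent 17-DMAG plus stavudine tumors, which were the lowest values among the 11 tumors. The log2 change was -0.82 (SE 0.18, adjusted p = 0.292 in edgeR and 0.00442 in DESeq2). Itgax was 5.30, 11.9 and 10.1 CPM against 24.2 and 20.7 CPM (log2 change 1.30, SE 0.40, adjusted p = 0.365). Itgb2, its beta chain, was 5.94, 5.42 and 9.03 CPM against 18.1 and 12.4 CPM (log2 change 1.17, SE 0.47, adjusted p = 0.468). Itgad, a rarer Itgb2 partner of macrophages, was 0.322, 0.522 and 0.422 CPM against 1.27 and 1.51 CPM (log2 change 1.72, SE 0.58, adjusted p = 0.417), on 14 to 74 counts per library. In all 3 the recurrent tumors lay above the primary ones. Itgae, the alpha chain of intraepithelial lymphocytes, went the other way, at 6.77, 12.9 and 8.20 CPM against 5.85 and 2.45 CPM (log2 change -1.16, SE 0.57), and so did Itgb6, at 36.9, 43.4 and 51.0 CPM against 36.1 and 27.4 CPM (log2 change -0.46, SE 0.24).

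**Figure D4:**
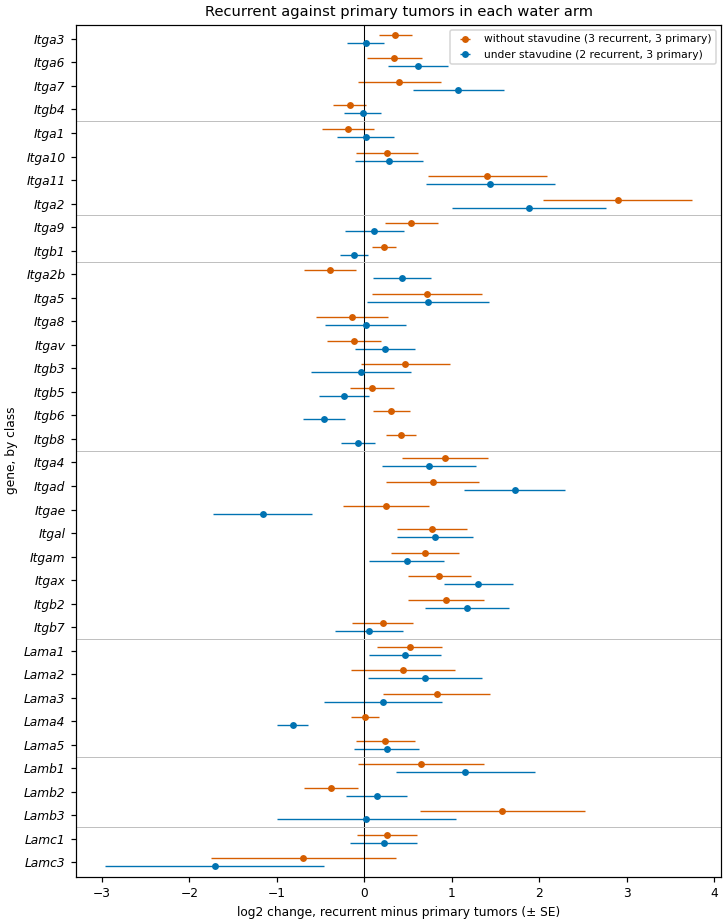
Log2 change of 36 genes in recurrent against primary tumors, with bars of 1 SE, without stavudine (orange, 3 against 3 tumors) and under stavudine (blue, 2 against 3), which share no library. No gene passed an adjusted p of 0.05 in either arm, 29 of 36 orange and 27 of 36 blue points lie above 0, and Lama4 stands at 0.00 and -0.82.

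Averaged over both water arms, edgeR called 0 genes of the set and 0% of all genes, DESeq2 called 1 (Itgax) among 419 of all genes, and limma voom called 0. At an unadjusted p under 0.05 there were 8, 21.6% against 13.6% of all genes: 7 with a positive change (Itgax, Itga2, Itgb2, Itgad, Itga11, Itgal and Itga4) and Lama4 with a negative one. Of these 8 genes, 5 are leukocyte integrins. No gene of the set separated all 5 recurrent from all 6 primary tumors, against 1.34% of all genes. Itgax stood at 9.95 CPM or more in recurrent tumors and at most 11.9 CPM in primary ones (log2 change 1.08, SE 0.27, adjusted p = 0.287 in edgeR and 0.0152 in DESeq2). The change of Itga2 was 2.39 (SE 0.61, adjusted p = 0.287), that of Itgb2 1.05 (SE 0.32, adjusted p = 0.310) and that of Lama4 -0.41 (SE 0.12, adjusted p = 0.293). Lamc3 and Itgae had changes of -1.20 and -0.46. Without recurrent 17-DMAG replicate 1, the change of Itga2 was 1.46 and that of Itgb2 0.68.

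Pan-leukocyte and macrophage marker sums were above those of all 6 primary tumors in every recurrent tumor except recurrent 17-DMAG replicate 2. The pan-leukocyte sum was 60.4, 56.5 and 62.9 CPM in primary untreated and 54.5, 63.0 and 66.7 CPM in primary stavudine tumors, against 179, 66.4 and 71.2 CPM in recurrent 17-DMAG and 107 and 85.5 CPM in recurrent 17-DMAG plus stavudine tumors. Macrophage markers, 6 genes, summed to 137 to 167 CPM in the 6 primary tumors and to 432, 151, 182, 263 and 220 CPM in the 5 recurrent ones in that group order. The T cell sum was 2.02 to 7.25 CPM in primary and 3.43 to 7.64 CPM in recurrent tumors, which overlapped. B cell sums overlapped as well. The fibroblast and pericyte sum had the pattern of the pan-leukocyte and macrophage sums. It was 220 to 560 CPM in the 6 primary tumors. In the 5 recurrent ones it was 3356, 261, 628, 946 and 1224 CPM, in the same order. The part of leukocyte or fibroblast content in the integrin and laminin values was not tested.

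**Figure D5:**
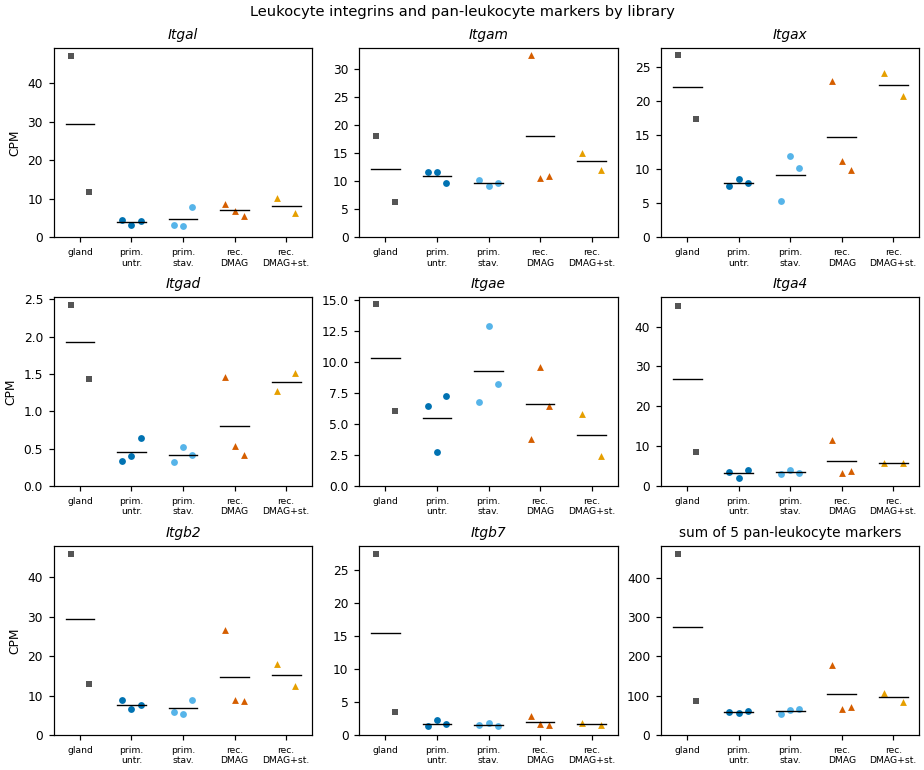
CPM of the 8 leukocyte integrin genes and the sum of 5 pan-leukocyte markers in each library, with 1 point per library, groups along the horizontal axis and a line at each group's mean. Gland 1 is the highest library for 7 of the 8 genes, and among tumors recurrent 17-DMAG replicate 1 is highest for Itgam (32.4 CPM) and Itgb2 (26.6 CPM), where the marker sum is highest among tumors as well (179 CPM).

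Stavudine was then compared with none in recurrent tumors. In edgeR 0 genes of the set and 0% of all genes passed, and DESeq2 and limma voom called 0 of the set. There were 2 at an unadjusted p under 0.05, 5.41% against 7.84%, and 4 that did not overlap, 10.8% against 21.5%. The sign was negative in 25 of 37 genes, with a median of -0.27. Lama4 was 204, 256 and 228 CPM in recurrent 17-DMAG and 133 and 170 CPM in recurrent 17-DMAG plus stavudine tumors (log2 change -0.59, SE 0.18, adjusted p = 0.434). Both tumors with stavudine were lower than all 3 without it. Itgb6 had a change of -0.50. In the other direction, Itga2b was 6.57 and 8.58 CPM under stavudine, above all 3 values without it (log2 change 0.68, SE 0.33, adjusted p = 0.676), and Itgax and Itgad had changes of 0.62 and 0.79.

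The difference between the recurrence effects in the arms was tested as an interaction. In edgeR 0 genes of the set and 0% of all genes passed, with 0 of the set in DESeq2 and in limma voom, and 2 had an unadjusted p under 0.05, 5.41% against 7.84%. These were Lama4 (-0.83, SE 0.24, adjusted p = 0.471) and Itgb6 (-0.77, SE 0.32, adjusted p = 0.610). Lama4 was 236, 254 and 188 CPM in primary untreated tumors, which overlapped the recurrent 17-DMAG values, while the arm with stavudine did not overlap. Itgb6 was 41.2, 29.4 and 37.7 CPM in primary untreated and 33.0, 49.1 and 53.3 CPM in recurrent 17-DMAG tumors. The leading positive values were 0.83 for Itga2b and 0.94 for Itgad. No difference between the arms was shown for a gene of the set.

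Covariation was examined over the 11 tumors for 15 pairs, with permutation tests of log2 CPM (100000 resamples, two-sided) adjusted over the pairs. All were chains known to join, except Itga7 with the skeletal muscle marker sum and Itgb2 with the leukocyte gene Ptprc. In 6 pairs Pearson's r passed an adjusted p of 0.05, Itgb2 with Ptprc among them. Lamb1 and Lamc1, partners in several laminin trimers, had r = 0.91 (adjusted p = 0.0009 by permutation) and rho = 0.87 (adjusted p = 0.00788 by permutation). Lamb1 ran from 16.6 to 157 CPM and Lamc1 from 104 to 339 CPM, both highest in recurrent 17-DMAG replicate 1 and lowest in primary stavudine replicate 2. Without the 2 tumors farthest from the median of Lamb1, r was 0.91.

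The leukocyte pairs varied together as well. For Itgal and Itgb2, r was 0.85 (adjusted p = 0.00248 by permutation) and rho 0.92 (adjusted p = 0.003 by permutation), and r was 0.77 without the 2 extreme tumors. For Itgam and Itgb2 r was 0.88 with rho 0.73, for Itgax and Itgb2 0.82 with 0.62, and for Itgb2 and the pan-leukocyte gene Ptprc 0.88 with 0.69. Adjusted permutation p-values for r in these 3 pairs were 0.00265, 0.00588 and 0.00326, but those for rho were 0.0525, 0.120 and 0.0681. Without the 2 extreme tumors, replicate 1 of each recurrent group, r was 0.55, 0.61 and 0.54, with unadjusted permutation p-values of 0.125, 0.0777 and 0.133. These 3 relations thus did not pass without both tumors together, but each passed with either one left out (adjusted permutation p-values of 0.0227 to 0.031). With each tumor taken minus its group mean, Itgax and Itgb2 did not pass (r = 0.67, adjusted p = 0.0609 by permutation). Itgal, Itgam and Ptprc with Itgb2 still passed, at r of 0.71, 0.89 and 0.87 (adjusted permutation p-values of 0.044, 0.0029 and 0.0045). The Itgb7 pairs gave r of 0.44 with Itga4 and -0.38 with Itgae, neither past the threshold. The first turned on single tumors: r was 0.84 without primary untreated replicate 2 (adjusted p = 0.0406 by permutation) and -0.35 without recurrent 17-DMAG replicate 1 (adjusted p = 0.437 by permutation).

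Itgav and Itgb6, which form a dimer, varied in opposite directions. Itgav was highest in recurrent 17-DMAG replicate 1 and primary untreated replicate 2, at 367 and 362 CPM, where Itgb6 was 33.0 and 29.4 CPM. Across the 11 tumors r was -0.74 (adjusted p = 0.0193 by permutation) and rho -0.85 (adjusted p = 0.0081 by permutation), and without those 2 tumors r was -0.79. With 1 tumor left out, the relation missed the threshold without primary untreated replicate 2 (r = -0.67, adjusted p = 0.0654 by permutation) and without recurrent 17-DMAG replicate 2 (r = -0.70, adjusted p = 0.0576 by permutation).

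The hemidesmosomal pairs did not pass the threshold. Itga6 and Itgb4 had r = -0.23, which turned to 0.46 without the 2 extreme tumors. Lama3 and Lamb3 had r = 0.46, and the adjusted permutation p-values of these pairs were 0.571 and 0.229. Lama4 and Lamc1 had r = -0.02. Itga3 and Itgb1 had r = 0.64 (adjusted p = 0.075 by permutation). Itga7 and the sum of skeletal muscle markers had r = 0.53 (adjusted p = 0.176 by permutation). The tumor with the most muscle RNA, recurrent 17-DMAG plus stavudine replicate 2, had the highest Itga7 among tumors, 6.89 CPM. The points of all pairs come from the same 11 libraries.

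Other genes of integrin adhesion and the basement membrane were read from 4 lists of 45 genes in all. Against the glands, 2 of 45 rose and 6 fell in tumors, at a threshold that 10.4% of all genes passed. Values of these list genes without either gland were not examined. In the list of integrin activation and the adhesion plaque, 1 of 20 rose, the actin cross-linker Actn4 (1110.5 and 585 CPM in the glands, 1297 to 2567 CPM in tumors, log2 change 1.24, SE 0.30, adjusted p = 0.0297). In the hemidesmosome list, 1 of 6 fell: Col17a1, a transmembrane collagen of hemidesmosomes, was 16.4 and 32.9 CPM in the glands and 0.506 to 3.54 CPM in tumors (log2 change -4.19, SE 0.54, adjusted p = 0.00221). Of 9 other basement membrane genes, the collagen chain Col4a5 rose (log2 change 0.88, SE 0.25, adjusted p = 0.0482).

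Of 10 other integrin ligands, 5 fell. Madcam1, the mucosal addressin bound by the pair of Itga4 and Itgb7, was 1.45 and 5.50 CPM in the glands and at most 0.184 CPM in tumors, where it was at 0 in 4 of 11. Its floor of 3 counts is 0.0587 to 0.107 CPM, so no fold is given. Spp1, or osteopontin, a ligand of Itgav integrins, was 1314 and 8436 CPM in the glands and ranged from 6.22 to 4346 CPM in tumors (log2 change -4.23, SE 1.19, adjusted p = 0.0483). The log2 changes of the Itgb2 ligands Icam1 and Icam2 were -1.99 (SE 0.43, adjusted p = 0.0175) and -1.83 (SE 0.40, adjusted p = 0.0190), and that of vitronectin, Vtn, was -1.96 (SE 0.40, adjusted p = 0.0149). In primary untreated tumors alone, Col17a1 (-4.30, adjusted p = 0.0404) and Madcam1 passed, a threshold that 2.11% of all genes passed.

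Among tumors, none of the 44 list genes tested passed in any comparison. Over both arms, 11 of the 44 had a positive change and 0 a negative one at an unadjusted p under 0.05, a threshold that 13.6% of all genes passed. The smallest p belonged to Spp1, which was 36.5, 97.0 and 87.8 CPM in primary untreated, 54.3, 6.22 and 12 in primary stavudine, 2984, 24.7 and 37.4 in recurrent 17-DMAG, and 4346 and 631 in recurrent 17-DMAG plus stavudine tumors (log2 change 5.23, SE 1.34, adjusted p = 0.287). The 3 tumors with Spp1 of 631 CPM or more also held the 3 highest values of Itga2 and of Itgb2 among the 11 tumors. The other 2 recurrent tumors lay within the Spp1 range of the primary ones.

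Exons of 11 of the 37 genes overlap another annotated gene, most on the opposite strand. The overlap covers 70.0% of the exonic bases of Itgam and 34.5% of those of Itga10, on the same strand, with annotated transcripts that were not rows of the count table, and 8.41% or less for any other gene pair, as for Itgb4. Since the strand setting of the counting is not stated in the sources used here, reads of such overlaps cannot be assigned with certainty. Itgad shares 70 bases with the muscle gene Cox6a2.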

How the data were processed

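Total RNA depleted of ribosomal RNA was sequenced from 13 frozen tissue samples, 2 mammary glands and 11 tumors in 4 groups. The authors aligned reads to mm10 (GRCm38) with STAR and deposited raw counts per gene from featureCounts (Subread 1.6.2). The strand setting and the treatment of reads with several matches are not given in the sources used here.

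Counts were filtered by expression and scaled by TMM factors, and edgeR 4.0.16 (R 4.3.3) quasi-likelihood tests were run over all genes with Benjamini-Hochberg adjustment. Gland comparisons used all 13 libraries (17135 genes) and tumor comparisons the 11 tumors (16870 genes). The threshold was an adjusted p of 0.05. DESeq2 1.42.0, limma 3.58.1 (voom), other scalings and filters, a replicate block, and fits that each left out 1 library were alternatives. The test was also checked on simulated counts. Total counts of 39921388 to 56887708 per library limit precision for genes with few reads, and a floor of 3 counts covers counting error only. Replicates of a group differed by more than sampling noise in all 11 pairs. Positions are from GENCODE on GRCm38.

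The genes and lists were chosen with earlier results of these data known. Changes are given for genes that passed, at most the 10 with the smallest p, and otherwise for the 3 with the smallest p in each direction (4 in gland comparisons, 2 in the interaction). Itgb1, outside the 10, was also named after its values were seen, as were other genes set beside their partners. A single laminin gene is counted in the totals of the set but not reported here by itself.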

Additional observations from a re-analysis of the deposited data

How the results depend on the processing

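Of 920 alternative values of 48 named gene results, 831 kept their direction and side of the threshold. Another 87 kept their direction but no longer passed, 2 newly passed and 0 reversed. All 87 losses were in the gland comparisons, since results among tumors had no call to lose, so the 831 do not measure how stable the calls were. Among the 48, calls of tumors against glands were each lost in 1 to 8 of 20 alternatives. Those of primary untreated tumors against glands were each lost in 13 to 15 of 21. Itgb1 was not among the 48, so its losses lie outside these ranges. It was called in 4 of the 13 fits that each left out 1 library. Tumors against glands, with 11 of 37 genes called, gave 20 in DESeq2 and 2 without the 3 tumors richest in muscle genes (chosen after seeing the data), and 4 to 19 when 1 library was left out. Primary untreated tumors against glands, with 4 called, gave 15 in DESeq2, 7 in limma voom, 0 with only the groups compared, 0 without the muscle-rich tumors, and 0 to 12 when 1 library was left out. DESeq2 called 1 gene for recurrence under stavudine and 1 for recurrence over both water arms. No other tumor comparison gave a call in the set under any alternative run. The 6 correlated pairs became 5 with group means removed and 5 to 7 when 1 tumor was left out. The cause was not tested.

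Over all genes, tumors against glands gave 3242 calls in DESeq2 and 1785 in edgeR, of which 33.3% and 15.4% were higher in tumors. For primary untreated tumors against glands DESeq2 gave 2352 calls and edgeR 361, with 29.8% and 13.3% higher. In DESeq2 the tumor comparisons gave 17 calls for stavudine in primary tumors, 61 and 331 for recurrence without and under stavudine, 277 for stavudine in recurrent tumors, 419 for recurrence over both arms and 189 for the interaction, against 0 in edgeR.

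With the replicate block, tumors against glands gave 4 calls in the set and primary untreated tumors against glands 0. Over all genes the block gave 371 and 4 calls, from 1785 and 361 without it. The replicate numbers did not pair the samples: 3 of 23 pairs with the same number had correlated deviations above 0.1, from -0.29 to 0.22. The fit with only the groups compared was not run for averaged or interaction comparisons.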
